A study of Mus musculus with 24 samples.

Results

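The trimethylation of lysine 4 on histone H3 (H3K4me3) was compared between NKp46+ and DN group 3 innate lymphoid cells (ILC3s) of WT mice, using 4 of the 24 CUT&Tag libraries of the study. The members were chosen by their labels: 2 libraries of sorted NKp46+ ILC3s and 2 of sorted DN ILC3s, all made with an antibody to H3K4me3, each giving 1 deposited peak list. All 4 came from the small intestine of mice with floxed Cxxc1 alleles (Cxxc1flox/flox) and no Cre, here called WT, so the floxed alleles are carried on both sides of the comparison. Age is labelled as 6 to 8 weeks and 100000 cells went into each library, while the protocols also name aged and young animals and a culture medium, so age and handling are not settled. The labels do not define DN beyond the name, and do not say whether replicate 1 and replicate 2 were separate animals, so the spread between replicates may be technical. The libraries read beside these 4 were the KO NKp46+ and KO DN libraries for H3K4me3 (Cxxc1flox/flox with a Cre), the WT CCR6+ libraries for H3K4me3, and the WT NKp46+ and DN libraries for CFP1, the protein encoded by Cxxc1.

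ILC3s are tissue lymphocytes of the gut mucosa that answer interleukin-23 with interleukin-22 and interleukin-17. NKp46+ ILC3s carry the natural cytotoxicity receptor encoded by Ncr1 and share a type 1 program with natural killer cells, driven by T-bet, the product of Tbx21. CCR6+ ILC3s resemble lymphoid tissue inducer (LTi) cells. H3K4me3 is laid down around active or poised gene starts by SET1 and MLL complexes, and its breadth varies with the gene. In CUT&Tag an antibody directs a transposase to the mark, and a peak is a stretch where the tagged fragments exceed the local background. A peak list of a sorted population cannot tell fewer cells that carry a mark from less mark in each cell.

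A gene was called marked in a library when a peak overlapped, by 1 b or more, a window of 1000 b on either side of either annotated gene end, because the gene table gives no strand. Stretches of 300 b around the annotated starts of 5 genes, from 250 b before to 50 b after the start, show the kinds of start the comparison turned on. They are RefSeq sequences of GRCm38.p6, the assembly also called mm10, written 5′ to 3′ on the gene's strand with CG dinucleotides in capitals (CG reads the same on both strands). Ncr1 is the surface marker of the NKp46+ subset, Klrc2 was marked in NKp46+ lists only, Prf1 was wider in both NKp46+ lists, and Cd5 and Gprin3 were marked in DN lists only.
Ncr1, chr7:4337465-4337764, plus strand: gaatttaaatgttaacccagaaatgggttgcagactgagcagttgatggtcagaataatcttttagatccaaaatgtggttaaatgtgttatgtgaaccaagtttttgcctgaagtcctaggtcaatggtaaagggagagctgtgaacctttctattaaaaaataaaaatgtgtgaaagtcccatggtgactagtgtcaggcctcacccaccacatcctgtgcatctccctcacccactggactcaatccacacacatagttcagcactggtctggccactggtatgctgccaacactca
Klrc2, chr6:129660547-129660846, minus strand: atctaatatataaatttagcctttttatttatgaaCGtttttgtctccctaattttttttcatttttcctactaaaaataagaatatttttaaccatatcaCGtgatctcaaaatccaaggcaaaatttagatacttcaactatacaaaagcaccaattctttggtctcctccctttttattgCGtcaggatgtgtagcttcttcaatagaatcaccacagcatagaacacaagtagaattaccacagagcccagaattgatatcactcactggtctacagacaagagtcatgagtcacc
Prf1, chr10:61297586-61297885, plus strand: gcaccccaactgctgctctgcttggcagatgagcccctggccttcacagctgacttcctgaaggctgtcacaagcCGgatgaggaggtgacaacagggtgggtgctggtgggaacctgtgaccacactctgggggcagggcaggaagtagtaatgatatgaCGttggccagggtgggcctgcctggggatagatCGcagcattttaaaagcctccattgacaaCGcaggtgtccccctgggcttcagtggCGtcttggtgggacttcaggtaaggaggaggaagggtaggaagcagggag
Cd5, chr19:10738925-10739224, minus strand: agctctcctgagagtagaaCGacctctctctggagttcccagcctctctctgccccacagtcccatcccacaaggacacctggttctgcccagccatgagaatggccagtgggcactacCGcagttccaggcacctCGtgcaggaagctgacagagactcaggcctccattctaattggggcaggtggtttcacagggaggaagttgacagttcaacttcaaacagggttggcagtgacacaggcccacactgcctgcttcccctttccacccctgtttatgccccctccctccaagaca
Gprin3, chr6:59426257-59426556, minus strand: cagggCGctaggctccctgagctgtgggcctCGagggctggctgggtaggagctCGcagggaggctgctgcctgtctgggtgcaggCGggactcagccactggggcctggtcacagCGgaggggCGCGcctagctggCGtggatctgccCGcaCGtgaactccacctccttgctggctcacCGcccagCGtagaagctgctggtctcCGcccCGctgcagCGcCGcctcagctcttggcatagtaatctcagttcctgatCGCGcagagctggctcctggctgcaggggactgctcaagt

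The Ncr1 stretch held 0 CG, which was the case for 5.43% of the 32851 promoters in the table. Klrc2 and Cd5 held 3 CG each and Prf1 held 5. Gprin3 held 18, and 43.5% of all promoters held 10 or more.

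The NKp46+ lists held 12838 peaks in replicate 1 and 15397 in replicate 2, and the DN lists held 13773 and 15206. The median peak was 796 and 1193 b wide in the NKp46+ lists and 966 and 1187 b in the DN lists, and peaks covered 10.9 and 19.5 Mb against 14.2 and 19.2 Mb. Both replicate 1 lists were therefore shorter and narrower than both replicate 2 lists, and NKp46+ replicate 1 was the lowest of the 4 on all 3 measures. On the log2 scale the NKp46+ mean lay 0.04 below the DN mean for peak number, 0.14 below for median width and 0.17 below for covered length. In replicate 1 the differences, NKp46+ minus DN, were -0.10, -0.28 and -0.37, while in replicate 2 they were 0.02, 0.01 and 0.03, so the sign differed between replicates. The share of peaks at gene ends was 68.8% and 61.8% in NKp46+ and 66.8% and 62.7% in DN. None of these 4 measures separated the subsets (exact two-sided permutation p = 1 for each, where 2 against 2 libraries cannot go below 0.333), and the lists carry no read totals, so depth is unknown.

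**Figure D1:**
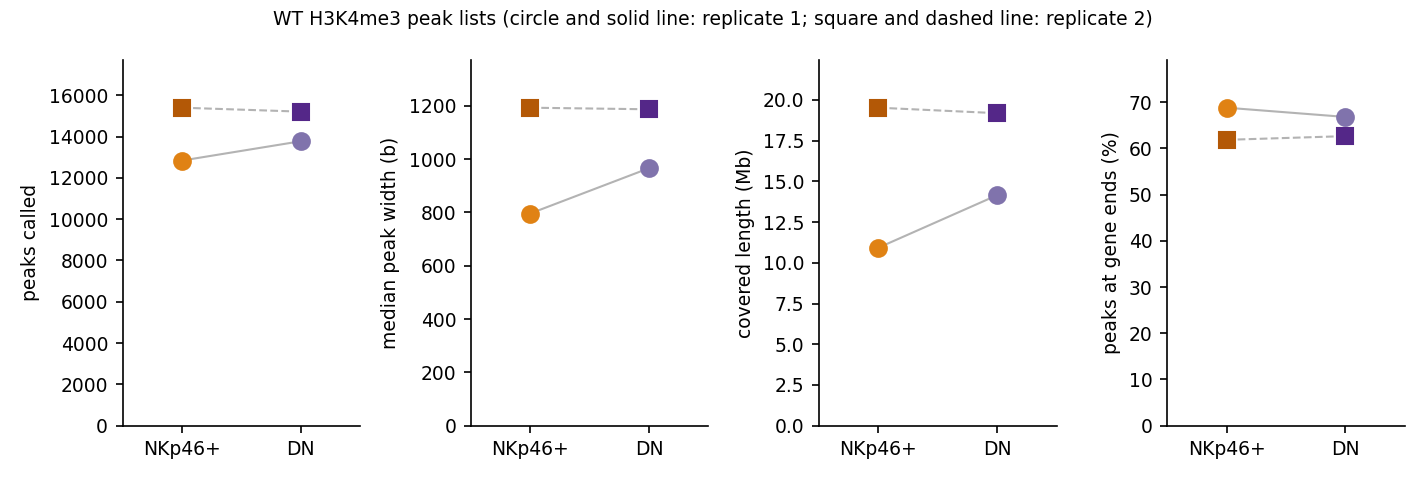
Number of peaks, median peak width in bases, covered length in megabases and percentage of peaks at a gene end in each of the 4 WT H3K4me3 lists, with lines joining the libraries of one replicate number. The replicate 2 libraries lie close together at 15397 and 15206 peaks, whereas NKp46+ replicate 1 is lowest at 12838 peaks and a median width of 796 b.

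Merging the 4 lists gave 17181 regions, of which 11317 (65.9%) were present in every list. Of the regions in either replicate 2 list, NKp46+ and DN shared 85.5%, and in replicate 1 they shared 80.1%. Replicates of one subset shared 75.0% in NKp46+ and 82.0% in DN. Regions present in both NKp46+ lists and neither DN list numbered 150 (0.873% of all regions), and the reverse held for 287 (1.67%). Both kinds were weak: their median within-list percentile of fold enrichment, the authors' own value for each peak, was 14.1 and 14.5, against 59.8 for regions in all 4 lists. Regions in all 4 lists lay at a gene end in 75.9% of cases, against 10.7% of the NKp46+ set and 26.8% of the DN set. Without a library the count of NKp46+ regions was 1109 (NKp46+ replicate 1 left out), 485 (NKp46+ replicate 2), 210 (DN replicate 1) and 458 (DN replicate 2), and the count of DN regions was 315, 1568, 1044 and 661 in the same order.

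The markers that should tell the sorted subsets apart did so in part. Ncr1 (chromosome 7, 4337715 to 4345184), whose product defines the NKp46+ gate, had a peak of 1398 and 2539 b in the NKp46+ lists, none in DN replicate 1 and one of 1846 b in DN replicate 2. The replicate 2 DN list thus carried the mark at the gene that the gate uses. Among the KO lists, Ncr1 was marked in both NKp46+ lists and in neither DN list. Tbx21 (chromosome 11, 97098007 to 97115331) was marked in all 4 lists, with a widest peak of 942 and 3074 b in NKp46+ and 1026 and 2964 b in DN, so its widths followed the replicate and overlapped between subsets. Il23r, the interleukin-23 receptor gene, was marked in all 4 lists at 1750, 2666, 1432 and 2723 b, in the order NKp46+ replicates 1 and 2, then DN replicates 1 and 2, which is kept below. Il22, Il17a and Il17f, the cytokine genes of ILC3s, had no peak at a gene end in any of the 4 lists.

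Of 21631 protein-coding genes, 10944 were marked in at least 1 of the 4 lists and 9706 in all of them. The replicates of one subset disagreed at many genes: 911 in NKp46+, of which 881 were marked in replicate 2 only, and 523 in DN. Against this spread, 17 genes were marked in both NKp46+ lists and neither DN list (0.155% of the marked genes), and 67 in both DN lists and neither NKp46+ list (0.612%). In replicate 1 alone 88 genes (0.804%) were marked in NKp46+ and not DN, and 602 (5.5%) the other way. In replicate 2 alone the counts were 208 (1.9%) and 192 (1.75%). Of the replicate 1 genes 19.3% in the NKp46+ direction and 11.1% in the DN direction appeared again in replicate 2, which is 8.17% and 34.9% of the replicate 2 genes. With the lists of each replicate number cut to equal length, replicate 1 gave 171 and 527 genes and replicate 2 gave 205 and 205. The most common incomplete pattern was a mark in every list but NKp46+ replicate 1, at 460 genes, against 56 genes marked in every list but DN replicate 1. Without a library the NKp46+ count was 170 (NKp46+ replicate 1 left out), 30 (NKp46+ replicate 2), 33 (DN replicate 1) and 73 (DN replicate 2), and the DN count was 72, 527, 185 and 120.

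**Figure D2:**
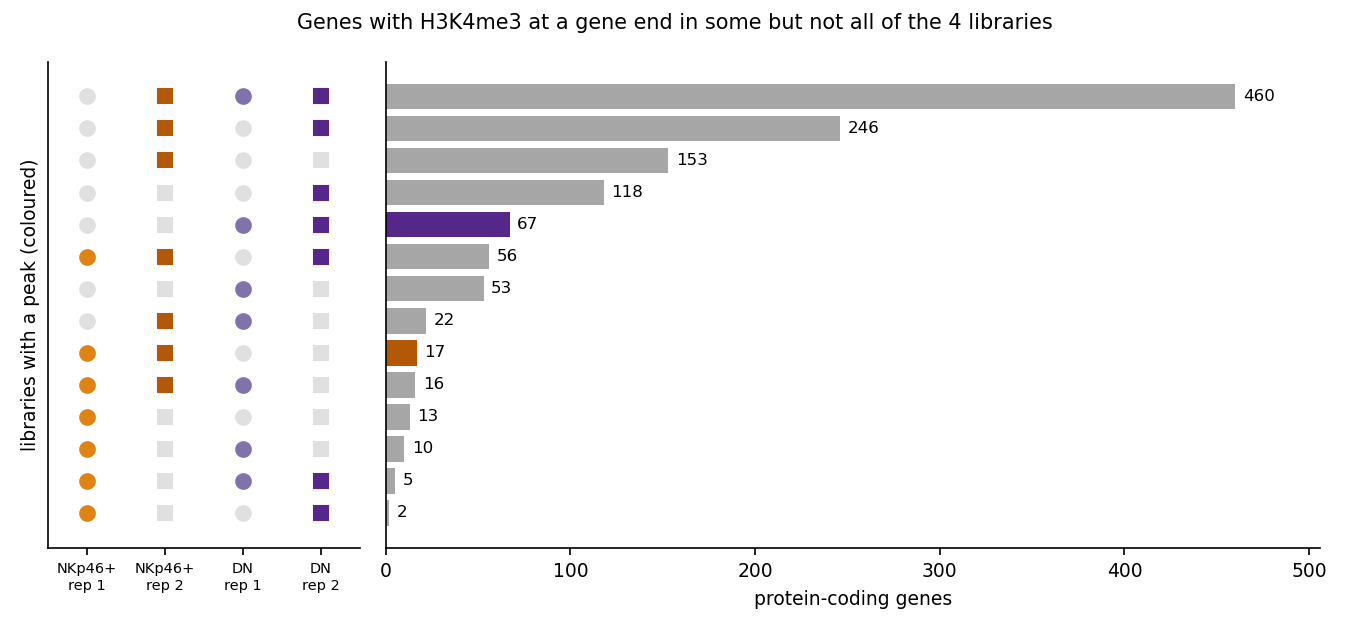
Number of protein-coding genes (bars) with an H3K4me3 peak at a gene end in each combination of the 4 lists shown by the coloured symbols at the left, leaving out genes in all or none. The 67 genes marked in DN only and the 17 marked in NKp46+ only are smaller sets than the 460 that lack a peak in NKp46+ replicate 1 alone and the 246 marked in both replicate 2 lists alone.

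The 17 genes marked in NKp46+ only held one of the natural killer receptor genes. Klrc2, which encodes the activating receptor NKG2C (chromosome 6, 129649602 to 129660737), had peaks of 374 and 1914 b in the NKp46+ lists and none anywhere in the gene in the DN lists. The Klrc2 stretch shown above held a peak in NKp46+ replicate 2 and none in NKp46+ replicate 1. Klrc2 had no peak in either CCR6+ list and in none of the KO DN lists, and 1 peak among the KO NKp46+ lists. The neighbouring Klrc genes are close copies, and the treatment of reads that match several places is not stated. The others of the 10 with the highest percentiles were Dok6, an adaptor of receptor tyrosine kinases, Cracdl, Hc (complement component C5), Foxd1 (a forkhead factor), Cdkl1, Enho, Slc34a3 (a phosphate transporter), Spns3 and Dnal1 (an axonemal dynein chain). Their peaks were narrow, from 252 to 579 b in NKp46+ replicate 1 and from 363 to 1054 b in replicate 2. At Cracdl the DN lists had a peak elsewhere in the gene. At Hc and Slc34a3 the promoter stretches in the table held no peak in any of the 4 lists. With windows at the annotated starts of the promoter table, Hc no longer differed in the number of lists. At Slc34a3 the share of NKp46+ lists was then 0.5 above that of DN lists, so a call remained near its annotated start. With peaks of at least 5-fold enrichment only, Dok6, Hc and Foxd1 kept a peak in both NKp46+ lists and neither DN list, and Klrc2 had one in 1 NKp46+ list. The median percentile over the 17 genes was 13.8 and 21.1 in the 2 NKp46+ lists, against 64.4 and 66.2 for genes marked in all 4 lists.

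The 67 genes marked in DN only included Rab39b, a small GTPase gene, which had the highest mean percentile of them, with 34.3 and 77.8 in the DN lists, at widths of 458 and 623 b. Gprin3, shown above, had peaks of 869 and 1182 b at percentiles of 47.2 and 56.1, and was also marked in both CCR6+ lists, both KO DN lists and neither KO NKp46+ list. Tnfsf13b encodes BAFF, the survival factor of B cells, and its peaks were 803 and 1080 b wide. Hpgds, the prostaglandin D synthase gene used as an ILC2 marker, had peaks of 390 and 860 b. The rest of the 10 with the highest percentiles were St6galnac2 (a sialyltransferase), Cyp2s1 (a cytochrome P450), Kif7 (a kinesin of Hedgehog signalling), Fgf2 (a fibroblast growth factor), Igsf9b and Dlg3. At Dlg3 the NKp46+ lists had a peak elsewhere in the gene, and one of its annotated starts held a peak in every list. With windows at the annotated starts of the promoter table, Dlg3 no longer differed in the number of lists. St6galnac2 no longer differed with windows of 500 b, nor when the peak summit had to lie in the window. Over all 67 genes the median percentile was 14.7 and 23.6 in the DN lists.

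Of the 249 list genes in the table, 4 were marked in both DN lists and neither NKp46+ list, against 0.612% of all marked genes. Cd5, a receptor that dampens T cell receptor signals, had peaks of 794 and 922 b. Btla, an inhibitory receptor that binds HVEM, had peaks of 970 and 1242 b. Ccr7, the lymph node homing receptor, had peaks of 480 and 562 b, and Hpgds is given above. No list member was marked in both NKp46+ lists and neither DN list, a pattern held by only 0.155% of all marked genes.

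The NKp46+ and type 1 list was marked at 23 and 31 of its 37 genes in the NKp46+ lists and at 22 and 29 in the DN lists, so the counts followed the replicate. More NKp46+ than DN lists marked 7 of the 37 genes, against 2.33% of all marked genes, and more DN than NKp46+ lists marked 4, against 6.42%. The 7 were Ncr1, Il2rb, Ccl3, Ccl4, Xcl1, Klri2 and Tyrobp. Il2rb, the receptor chain for interleukins 2 and 15, had an end peak of 516, 1955, none and 506 b, and a peak somewhere in the gene in every list. Xcl1, a chemokine that draws in dendritic cells, had 422, 2357, none and 1983 b. Ccl3, a chemokine of inflamed tissue, had 297, 945, none and 625 b, and the overlapping windows of Ccl4 took in the same peak in NKp46+ replicate 1. Klri2, a killer cell lectin-like receptor gene, and Tyrobp, which encodes the adaptor DAP12, were marked in NKp46+ replicate 2 alone, at 1303 and 819 b. The pattern shared by Ncr1, Il2rb, Ccl3, Ccl4 and Xcl1 was the absence of a peak from DN replicate 1, with a peak in DN replicate 2.

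The 4 type 1 genes marked in more DN lists were Ccl5 (a chemokine), Gzma and Gzmb (granzymes, the proteases of cytotoxic granules) and Il21r (the interleukin-21 receptor). Each lacked a peak in NKp46+ replicate 1 and had one in the other 3 lists, for example 2414, 1890 and 2607 b at Gzmb. With peaks of at least 5-fold enrichment only, Il21r turned to a share of NKp46+ lists 0.5 above that of DN lists, and Gzma, Gzmb, Xcl1, Ccl4, Klri2 and Tyrobp no longer differed in the number of lists. Il2rb no longer differed with windows of 2000 b, with summits in the window or with lists of equal length. Ccl3 and Ccl5 no longer differed with q-values of 1e-05 or less. Ncr1 kept its difference under every window, filter and list-length setting. Prf1, Ifng and the other members marked in all 4 lists enter the comparison of widths.

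The CCR6+ and LTi list was marked at 8 and 12 of its 18 genes in NKp46+ and at 11 and 14 in DN, with 0 members in more NKp46+ lists, against 2.33% of all marked genes, and 4 in more DN lists, against 6.42%. Beside Ccr7 these were Tnfrsf11a, which encodes the receptor RANK (none, 1379, 710 and 2188 b), and the MHC class II genes H2-Aa (none, 1209, 500 and 756 b) and H2-Eb1 (467 b in DN replicate 2 alone). Ccr6 itself had an end peak of 479 b in NKp46+ replicate 2 and of 2619 b in DN replicate 2 and none in the replicate 1 lists, and a peak somewhere in the gene in all 4. It was named after its values were seen. With peaks of at least 5-fold enrichment only, Ccr7, H2-Aa and H2-Eb1 no longer differed in the number of lists, and Tnfrsf11a still did. In both replicate numbers the DN list marked more LTi members than the NKp46+ list.

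**Figure D3:**
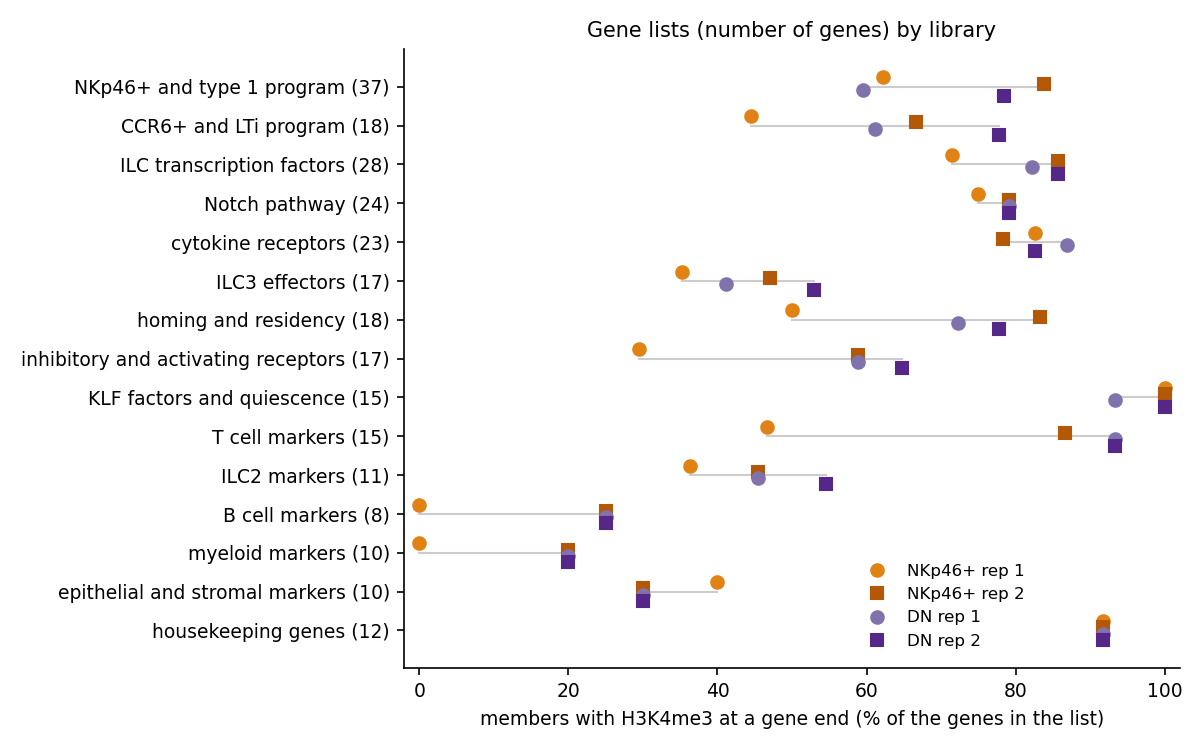
Percentage of the genes of 15 lists with an H3K4me3 peak at a gene end in each of the 4 libraries, with the number of genes in each list in brackets. The T cell marker list spreads most, from 7 of 15 genes in NKp46+ replicate 1 to 14 of 15 in both DN lists, while the housekeeping list is at 11 of 12 in every library.

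Of 15 T cell markers, 7 and 13 were marked in the NKp46+ lists and 14 and 14 in the DN lists. More DN than NKp46+ lists marked 7 of them, against 6.42% of all marked genes, and more NKp46+ lists marked 0, against 2.33%. Of the 7, 6 lacked a peak in NKp46+ replicate 1 alone and Cd5 lacked one in both NKp46+ lists. In the KO lists the counts were 5 and 10 for NKp46+ and 12 and 14 for DN, and in the WT CCR6+ lists 12 and 13. The summed width of the widest peaks of these 15 genes was 4943 and 23752 b in NKp46+ and 20727 and 31195 b in DN, so these sums overlapped between subsets. Cd3g, a chain of the CD3 complex, was unmarked in NKp46+ replicate 1 and had 1399, 1016 and 1913 b in the others, while Trat1 was at 0 in all 4. Among 8 B cell markers, 2 (Cd79b and Blk) were marked in every list but NKp46+ replicate 1, and 6, Ms4a1 among them, in none. Among 10 myeloid markers, 2 (Cd14 and Cebpa) had that same pattern, and 8, Lyz2 and Csf1r among them, were marked in none. Of 10 epithelial and stromal genes, 4 and 3 were marked in NKp46+ and 3 and 3 in DN, and of 11 ILC2 markers 4 and 5 in NKp46+ and 5 and 6 in DN. The part of T cells or other cells in the genes marked in DN only was not tested.

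Several further lists also had their lowest count in NKp46+ replicate 1. Inhibitory and activating receptors were marked at 5 and 10 of 17 genes in NKp46+ and 10 and 11 in DN, with Pdcd1, Ctla4, Crtam, Tnfrsf4 and Cd81 lacking a peak in NKp46+ replicate 1 alone. Homing and residency genes were marked at 9 and 15 of 18 against 13 and 14, and Itgae (the integrin CD103), S1pr1 and Ccr2 showed the same pattern. ILC transcription factors were marked at 20 and 24 of 28 against 23 and 24. Members marked in more DN lists numbered 6, 4 and 4 in these lists, in that order, against 6.42% of all marked genes. In each of these lists 1 member was marked in more NKp46+ lists, against 2.33%. Cd244a among the receptors and Nfil3 among the factors were such members, lacking a peak in DN replicate 1 alone. Gata3, Rora, Ets1 and Runx2 had no peak at their outer ends but one within the gene in all 4 lists, so inner starts are missed by the rule. Notch pathway genes (18 and 19 of 24 against 19 and 19), cytokine receptors (19 and 18 of 23 against 20 and 19), ILC3 effectors (6 and 8 of 17 against 7 and 9) and KLF and quiescence factors (15 and 15 of 15 against 14 and 15) differed between subsets by no more than 1 gene within a replicate number.

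**Figure D4:**
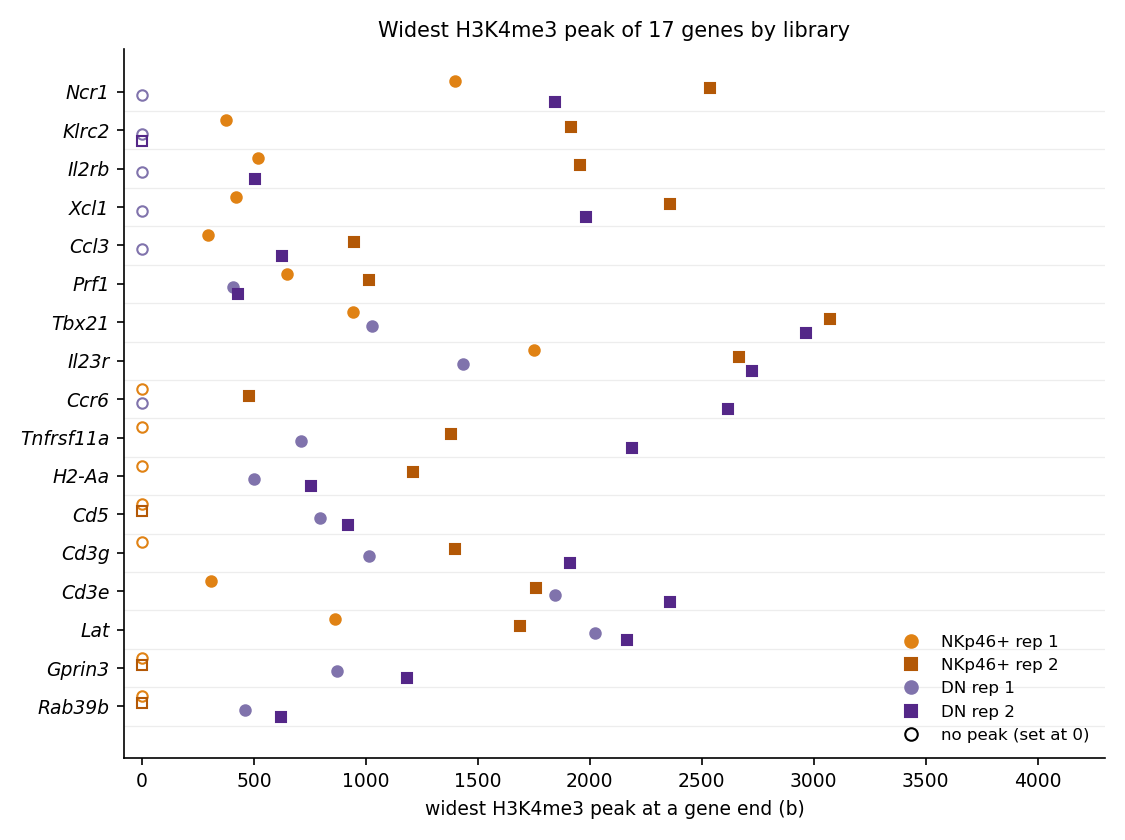
Width in bases of the widest H3K4me3 peak at a gene end for 17 genes in each of the 4 libraries, with open symbols at 0 where no peak was called. Ncr1, Il2rb, Xcl1 and Ccl3 lack a peak in DN replicate 1 only, Klrc2 in both DN lists, and Cd5, Gprin3 and Rab39b in both NKp46+ lists.

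Over the 11317 regions in all 4 lists, no width and no rank differed between the subsets past an adjusted p of 0.05 (limma with Benjamini-Hochberg adjustment, two-sided). The fit held no term for replicate number. With such a term, the replicate block given in the closing section, some ranks and no widths passed that threshold. The labels do not say what a replicate number marks. For quantile-normalised log2 width the share called was 0%, the smallest adjusted p was 1.00, and 100 regions wider in NKp46+ and 106 wider in DN had an unadjusted p under 0.05. Widths in both NKp46+ lists exceeded those in both DN lists at 11.6% of the regions, and the reverse held at 12.1%. Widths correlated across regions at r = 0.946 between the replicate 2 lists and 0.811 between the replicate 1 lists, against 0.733 between the NKp46+ replicates and 0.856 between the DN replicates. Libraries of one replicate number were thus closer to each other than the NKp46+ replicates were.

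Among regions at gene ends, Prf1 had the smallest p for a wider region in NKp46+. Prf1 encodes perforin, the pore-forming protein of cytotoxic lymphocytes, and its region (chromosome 10, 61297306 to 61298320) spanned 649 and 1015 b in NKp46+ and 407 and 427 b in DN. Both NKp46+ values lay above both DN values. The normalised log2 difference was 1.11 ± 0.16 (SE, 2 libraries per subset), 1.05 in replicate 1 and 1.18 in replicate 2, with an adjusted p of 1.00 (limma). The Prf1 percentiles of fold enrichment over the shared regions were 5.31 and 46.2 in NKp46+ and 5.71 and 6.74 in DN. Its peak was thus weak in every list but NKp46+ replicate 2. Prf1 had no peak in the CCR6+ lists, a peak in both KO NKp46+ lists and in 1 of the KO DN lists. Among the genes that followed were Cadm1 (an adhesion molecule; 874 and 1056 b against 513 and 653 b), Cd9 (a tetraspanin; 907 and 1291 b against 717 and 827 b), Setbp1, Iftap, Ggnbp1 and Zmat4. Their normalised log2 differences ran from 0.66 at Cd9 to 0.94 at Zmat4, positive in both replicate numbers at each.

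In the DN direction the smallest p belonged to Tbc1d24, whose region spanned 598 and 1035 b in NKp46+ and 1563 and 1819 b in DN, a normalised log2 difference of -0.96 ± 0.14 (SE) with an adjusted p of 1.00 (limma). Skap1, an adaptor of T cell receptor and integrin signalling, spanned 1082 and 1686 b against 2505 and 3059 b. Dennd2d, a Rab regulator, spanned 1275 and 1756 b against 2768 and 4318 b, a difference of -1.11 that became 0.28 with DN replicate 2 left out and regions merged over the other 3 lists. The Dennd2d region took in a further annotated start, whose promoter stretch held a peak in both DN lists and neither NKp46+ list. Nr4a2, an immediate early nuclear receptor, spanned 422 and 748 b against 915 and 1123 b. Gbp3, an interferon-induced guanylate-binding protein, spanned 674 and 1237 b against 1462 and 2606 b. Mboat4, Chst10 and Hdac11 completed the 8. At each of the 8 the difference was negative in both replicate numbers.

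**Figure D5:**
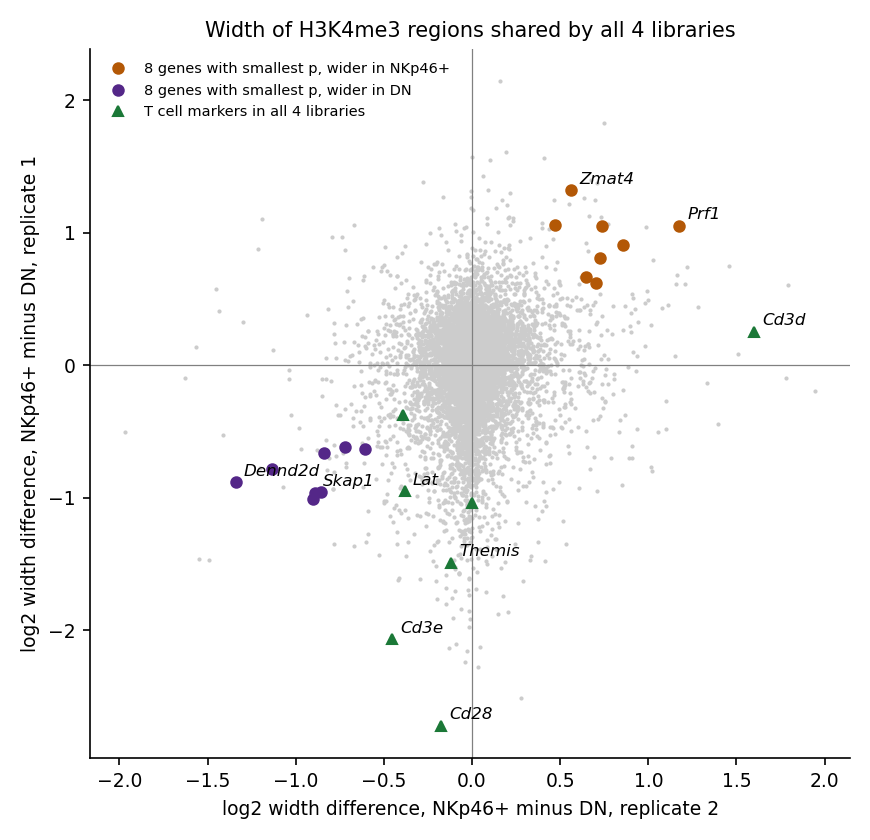
Normalised log2 width difference, NKp46+ minus DN, of the 11317 regions in all 4 lists (grey points), in replicate 2 on the horizontal and replicate 1 on the vertical axis. Most points spread along the vertical axis; Prf1 lies at 1.18 and 1.05, Dennd2d at -1.34 and -0.88, and 5 of the 7 T cell markers lie below 0 in both replicates.

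T cell markers had the largest median width difference of the lists that held a region in all 4 libraries. Over the 7 that had a region in all 4 lists the median was -0.67, against 0.03 over all regions, with -1.04 in replicate 1 and -0.18 in replicate 2. Both normalised DN values exceeded both NKp46+ values at 4 of the 7, against 12.1% of all regions, and both NKp46+ values were higher at 1, against 11.6%. Cd3e, a chain of the CD3 complex, spanned 306, 1760, 1845 and 2358 b. Cd28, the costimulatory receptor, spanned 294, 2530, 2784 and 2825 b, and Lat, the linker for activation of T cells, 862, 1690, 2024 and 2167 b. The exception was Cd3d, at 781, 1357, 810 and 450 b, in a region at the gene's higher-coordinate end and not at its annotated start, where only DN replicate 2 had a peak. At Cd3e, Cd28 and Lat the lowest value was that of NKp46+ replicate 1.

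Type 1 genes marked in every list showed no common direction. The median width difference over their 18 regions was -0.10, with both normalised NKp46+ widths higher at 2 (Prf1 and Fcer1g), against 11.6% of all regions, and both normalised DN widths higher at 4, against 12.1%. Ifng, the type 1 cytokine, was one of the latter at 337, 1402, 1484 and 1827 b, with a normalised log2 difference of -1.01 that was -1.61 in replicate 1 and -0.41 in replicate 2. Fcer1g, an adaptor of activating receptors, spanned 1745, 2539, 1381 and 2319 b before normalisation, so its covered lengths overlapped between subsets. LTi genes had a median of -0.19 over 9 regions, ILC transcription factors -0.10 over 20, and housekeeping genes -0.02 over 11. Bcl11b, a factor of T cells and ILC2s named after its values were seen, was among 7 of the 20 ILC factor regions whose normalised width was higher in both DN lists (12.1% of all regions), with covered lengths of 669, 2525, 2153 and 3731 b before normalisation.

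Ranks of fold enrichment, taken within each list over the same 11317 regions, gave 0% called and a smallest adjusted p of 1.00 (limma), with 34 regions higher in NKp46+ and 38 higher in DN at an unadjusted p under 0.05. That fit held no term for replicate number. With such a term some ranks passed the threshold, 10 of them at genes named here and below, as given in the closing section. Both NKp46+ ranks exceeded both DN ranks at 9.04% of the regions, and the reverse held at 10.8%. Rank and width differences had a correlation across regions of r = -0.01, where regions share libraries and are not independent replicates. The smallest p towards NKp46+ belonged to Dennd2d, whose percentiles were 37.7 and 29.6 in NKp46+ and 2.73 and 1.31 in DN, although its region was wider in DN. Gbp3 also combined a higher rank in NKp46+ (42.1 and 26.0 against 11.5 and 6.62) with a wider region in DN. The region at the higher-coordinate end of Cd3d stood at 23.5 and 10.1 against 1.97 and 0.314. The other genes in this direction were Lrp11, Znhit6, Sorcs2, Dna2 (a nuclease-helicase of DNA repair) and Neu3 (a sialidase).

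Towards DN, Prdm8 had the smallest p for rank, with percentiles of 2.40 and 2.31 in NKp46+ and 30.0 and 34.8 in DN, in a region of 321 to 649 b. Cd200, whose product gives an inhibitory signal to myeloid cells, stood at 10.2 and 11.9 against 45.1 and 77.9, and its region was wider in both DN lists (379, 630, 703 and 1152 b). Chst10, a sulfotransferase gene, stood at 4.75 and 22.2 against 58.0 and 59.8 and was wider in DN as well. Tert, the telomerase catalytic subunit, stood at 4.99 and 18.4 against 38.4 and 52.9. Cdkn2b, a cell cycle inhibitor, stood at 74.6 and 68.4 against 96.6 and 91.8, while its region was wider in NKp46+ (628, 1154, 566 and 854 b). Mgarp, Zik1 and Pak6 completed the 8.

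Away from gene ends, the NKp46+ region with the highest percentiles lay inside Pisd (chromosome 5, 32746144 to 32747212), at 513 and 1069 b and percentiles of 52.8 and 77.1. The next lay inside Mbnl2 (chromosome 14, 120405056 to 120405725). The other 3 were outside protein-coding genes, 43099 b from Pdp1, 58089 b from Car2 and 1827 b from Pxt1. The DN region with the highest percentiles was narrow, 416 and 406 b (chromosome 13, 21506207 to 21506636), 6585 b from Zkscan8, and stood at percentiles of 72.6 and 99.4. The others lay inside Tbc1d4 and E2f2 and at 42913 b from Slc39a11 and 22070 b from Srsf3. Being listed in both libraries of one subset and neither of the other, these regions are described without a test.

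The genes chosen on WT presence were then read in libraries that the choice did not use. Of the 17 NKp46+ genes, 14 were marked in more KO NKp46+ than KO DN lists and 0 in more KO DN lists. Over all marked genes these shares were 7.06% and 1.43%, and over the 1238 genes marked in some but not all WT lists 44.3% and 10.1%. The split came mostly from replicate 1, with 12 against 0 genes, and replicate 2 gave 2 against 0. Of the 67 DN genes, 26 were marked in more KO DN lists and 18 in more KO NKp46+ lists. In KO replicate 1 the counts for these were 14 and 17, and in replicate 2 they were 21 and 1, so the direction differed between replicates. The KO replicate 1 lists differed in length, with 16635 peaks in NKp46+ and 12446 in DN, and replicate 2 had 18127 and 16422. The part of list length in these counts was not tested.

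In the WT CCR6+ lists, 7 of the 17 NKp46+ genes were marked in both and 4 in neither, and 28 of the 67 DN genes were marked in both and 24 in neither. Of the 1238 genes marked in some but not all of the 4 WT lists, 691 were marked in both CCR6+ lists and 252 in neither. A CFP1 peak at a gene end in any of the 4 WT lists was found at 1 of the 17 genes and at 3 of the 67 (4.48%), against 65.0% of the genes marked in all 4 H3K4me3 lists and 5.74% of the 1238 genes marked in some of them. The median number of CG in a 300 b promoter, taken over genes, was 18.5 for the 67 DN genes, of which 83.6% had a promoter in the table. It was 23 for genes marked in all 4 lists and 15 over all genes. Other incomplete patterns had similar or lower values, such as 19 for DN replicate 2 alone, 18 for DN replicate 1 alone and 19.5 for all but NKp46+ replicate 1. NKp46+ replicate 2 alone had 13.5 and both replicate 2 lists alone had 15. The value was thus not particular to the DN genes. For the 17 NKp46+ genes only 11 had a promoter (64.7%), so no CG comparison is given.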

How the data were processed

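Subset, genotype, antibody and replicate number were read from the sample titles. The submitters' processing notes name mm10 and, among the tools, MACS2 2.2.7.1, Bowtie2 2.3.5.1, fastp 0.19.7, ChIPseeker 1.28.3 and Picard, with no settings or control. The authors deposited 1 peak list per library, each peak with a fold enrichment (a ratio), a −log10 q-value and a summit offset (a position in b, another kind of value). Deposited −log10 q-values started at 1.32 to 1.36 in the 4 lists. The fold enrichment is the authors' value within its list and served only for ranks and filters. The lists hold no read totals, so depth is unknown and a missing peak may reflect it.

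Peaks on the 19 autosomes and X were joined to protein-coding RefSeq genes of GRCm38.p6 by windows of 1000 b at both gene ends. Of these genes, 7048 share a window with another gene, and starts inside a gene are missed. Regions are peaks merged at an overlap of 1 b. Percentiles rank fold enrichment within a list (0 lowest, 100 highest). For regions in all 4 lists, quantile-normalised log2 covered length and normal scores of rank were tested with limma 3.58.1 (R 4.3.3), adjusted over all 11317 regions, threshold 0.05; the fits were tested on simulated data. Other values came from Python 3.11.15 with pandas 2.3.3, NumPy 2.4.6 and SciPy 1.17.1.

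The members and the 15 lists (250 genes, 249 in the table) were chosen with earlier results of these data known. Genes were named by rule: Ncr1 and Tbx21; list members marked in both libraries of one subset and neither of the other, or differing by 1 library in the type 1 and LTi lists; per direction the 10 genes marked in one subset only with the highest mean percentile; the 8 gene-end regions per direction and test with the smallest p; and 5 distal regions per direction, passing over predicted genes. Further genes are examples of a list's pattern or checks of cell identity, named after their values were seen. Alternatives covered window size, whole genes, summits, fold and q-value filters, list length, merging, each library left out and a replicate block; starts of the promoter table and equal lengths within a replicate number were added after seeing the data. A few of the genes so chosen are not reported here. The KO CFP1 lists were not used here.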

Additional observations from a re-analysis of the deposited data

How the results depend on the processing

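Depth is unknown, replicates may be technical, and 2 against 2 libraries leave little power. Genes marked in NKp46+ only moved from 17 to 8 with q-values of 1e-05 or less, 30 with lists of equal length and 9 at the starts of the promoter table, and ran from 30 to 170 with 1 library left out; genes marked in DN only ran from 72 to 527. With at least 5-fold enrichment 5 of the 17 and 25 of the 67 genes remained. Regions in NKp46+ only fell to 60 under that q-value and ran from 210 to 1109 with 1 library left out; regions in DN only fell to 184 with at least 5-fold enrichment and 168 under the q-value and ran from 315 to 1568. These counts rise by construction when fewer libraries must hold a peak or fewer must lack one. The cause of the other moves was not tested.

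The library measures changed sign with 1 library left out. Without NKp46+ replicate 1 the log2 differences in peak number, median width and covered length were 0.089, 0.16 and 0.24 and the gene-end share differed by -2.88 points. Without DN replicate 2 they were 0.03, 0.01, 0.05 and -1.48. Over all libraries left out in turn they ran from -0.17 to 0.089, -0.43 to 0.16, -0.59 to 0.24 and -2.88 to 4.07. Within replicate 2 alone they were 0.018, 0.0073, 0.025 and -0.803.

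Same-numbered libraries deviated together across regions (r = 0.490 for width and 0.654 for rank), but only 2 pairs exist and the labels do not say what a number marks, although the names of the deposited H3K4me3 lists carry one tag per number. With the replicate block, 53 ranks had an adjusted p under 0.05 (limma; 17 higher in NKp46+, 36 in DN) and 0 widths (smallest adjusted p 0.243, with 565 at an unadjusted p under 0.05). Il21r turned to 0.5 with at least 5-fold enrichment and Dennd2d width to 0.28 without DN replicate 2 (from -1.29 to 0.28 over all libraries left out); the cause was not tested. Of the other values of named genes, 85 of presence moved and 359 did not, and 139 of width kept their direction and side of the threshold. Of rank, 118 did so while 10 passed the threshold with the replicate block. These were Dennd2d (adjusted p 0.00034, limma), Cd3d (0.0037) and Lrp11 (0.037) towards NKp46+. Towards DN they were Cd200 (0.00071), Prdm8 (0.00080), Chst10 (0.0023), Zik1 (0.026), Mgarp (0.029), Tert (0.033) and Pak6 (0.039). Cdkn2b (0.086), Sorcs2 (0.092), Neu3 (0.092), Znhit6 (0.16), Gbp3 (0.19) and Dna2 (0.26) did not pass.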
